A study of Mus musculus with 15 samples.

Results

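Wild-type TH17 cultures that received the compound Srci1 were compared directly with STAT3-knockout TH17 cultures. The question was which transcripts the compound left intact and the knockout lost, and the reverse. The comparison held 6 of the 15 libraries of the series, 3 per group. It covered the 11937 of 55421 annotated genes that reached 1 TPM in at least 3 of those 6 libraries. TPM is a length-corrected abundance that adds up to the same total in each library, so that a value is the gene's share of that library's transcripts. The 3 wild-type TH17 libraries that received the solvent DMSO were set beside both groups to show in which direction each had moved.

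All 9 TH17 libraries were poly(A) RNA-seq of mouse CD4 T cells on day 5 of culture. Naive CD4 T cells sorted from spleen and lymph node were stimulated through CD3 and CD28. They were given TGFβ at 2.5 ng/ml, IL-1β, IL-6 and IL-23 at 10 ng/ml each, and antibodies that block IFNγ and IL-4. The first group was wild type and received Srci1 from 24 h after plating, at a concentration not given in the sources used here. The second group came from mice with floxed Stat3 alleles and a Cre expressed from Cd4 regulatory sequence, so that deletion took place in T cells, and received DMSO. The third group was wild type and received DMSO. Srci1 cultures thus differed from knockout cultures in genotype and in treatment. They had met the compound only after the first day, whereas the knockout cells carried the Cre before stimulation. How complete the deletion was is not given. The labels do not say whether libraries of a group came from separate animals or cultures, so that p-values measure only the spread between libraries.

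STAT3 is a transcription factor that is phosphorylated when cytokines such as IL-6, IL-21 and IL-23 bind their receptors. It then enters the nucleus and binds DNA at sites of the form TTCNNNGAA. In CD4 T cells it induces genes of the TH17 lineage, among them the IL-17 cytokines, as well as its own feedback inhibitor SOCS3. The T cell receptor signals through Src family kinases and induces a different set of early genes, among them the EGR and NR4A transcription factors. The study's title concerns how the receptor acts on STAT3, and these groups allow the compound to be set beside loss of STAT3.

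Promoters are given here for 3 genes that stood for the main gene groups, each as the 250 bases before a RefSeq transcript start on GRCm38.p6. Socs3 stood for STAT3 target genes that Srci1 cultures held and knockout cultures did not, Nkg7 for cytotoxic genes found in knockout cultures, and Slc2a1, a glucose transporter gene, for glycolysis. With Srci1, Socs3 lay 0.90 above DMSO on the log2 scale. It is thus outside the group of genes kept with Srci1 that is counted below. Capitals mark the match to TTCNNNGAA in Socs3 (chr11:117969367-117969616, minus strand) and Nkg7 (chr7:43436888-43437137, plus strand), and to ACGTG, the core of hypoxia response elements, in Slc2a1 (chr4:119108495-119108744, plus strand). The matches began 154, 220 and 36 bases before that start. The Socs3 window lies wholly inside the gene span that GENCODE M21 gives, which begins 431 bases further upstream, so that by that annotation it is within the gene. GENCODE spans also cover the last 65 bases of the Nkg7 window and the last 34 of the Slc2a1 window.
Socs3: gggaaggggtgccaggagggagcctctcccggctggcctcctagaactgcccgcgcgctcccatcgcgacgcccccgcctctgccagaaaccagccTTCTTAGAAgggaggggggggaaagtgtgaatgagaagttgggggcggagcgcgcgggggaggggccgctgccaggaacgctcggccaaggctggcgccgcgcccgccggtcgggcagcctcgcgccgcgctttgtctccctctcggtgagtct
Nkg7: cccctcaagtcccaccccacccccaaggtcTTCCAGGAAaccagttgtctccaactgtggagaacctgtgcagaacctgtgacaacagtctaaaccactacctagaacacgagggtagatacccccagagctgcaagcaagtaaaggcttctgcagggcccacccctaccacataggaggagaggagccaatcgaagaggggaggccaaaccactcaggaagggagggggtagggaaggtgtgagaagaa
Slc2a1: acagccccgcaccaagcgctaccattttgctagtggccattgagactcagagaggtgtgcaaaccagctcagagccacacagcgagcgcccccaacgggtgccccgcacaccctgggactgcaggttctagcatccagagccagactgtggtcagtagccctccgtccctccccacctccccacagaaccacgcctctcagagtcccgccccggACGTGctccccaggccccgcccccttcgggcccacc
On either strand, TTCNNNGAA was found in 7.16% of the 8895 tested genes with a promoter in the table, at any of a gene's listed starts. It was found in 27 of 275 promoters (9.82%) of genes that Srci1 cultures kept and knockout cultures lost, and in 21 of 340 (6.18%) of genes that knockout cultures gained and Srci1 cultures did not, by the rule given with the gene groups. ACGTG was found in 25.7% of tested genes' promoters and in 14 of 23 promoters (60.9%) of the glycolysis and hypoxia list. These counts are a description of the letters in these windows.

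The 2 groups differed in 51.8% of tested genes. limma called 3860 genes (32.3%) higher with Srci1 than in the knockout and 2319 (19.4%) lower, at a Benjamini-Hochberg adjusted p under 0.05. At least 2-fold differences on the log2(TPM + 1) scale were seen in 928 of the higher and 757 of the lower genes. These were 7.77% and 6.34% of all tested genes. The libraries of the 2 groups did not overlap for 6918 genes (58.0%). Libraries correlated at r = 0.980 to 0.988 within the 2 groups and at 0.904 to 0.912 between them, across genes, which are not independent replicates. Ribosomal protein transcripts took 21.5, 22.7 and 22.2% of TPM in Srci1 libraries, 29.1, 27.4 and 29.7% in knockout libraries and 26.5, 28.1 and 30.4% in DMSO libraries. The median gene was 0.12 higher with Srci1 on the log2 scale, and 62.5% of calls were higher. With TPM columns rescaled by the median of their ratios, 3109 genes were higher and 3044 lower (50.5% higher). Of the calls, 5428 had the same sign under that scaling and 0 had the opposite sign. The depth of the libraries is unknown, since TPM does not keep it.

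The 1 TPM filter bears on some of these calls. Of the 774 genes that passed in exactly 3 libraries, 276 did so in the 3 Srci1 libraries alone, of which 269 were called. Another 312 did so in the 3 knockout libraries alone, of which 305 were called. Such a gene could hardly go in any direction but that of the group through which it passed, so its call is a description. They made up 82 of the 361 genes kept with Srci1 and lost in the knockout, and 198 of the 507 gained in the knockout, by the rule given with the gene groups. Among the genes whose values are given, Hspa1a, Il21, Il23r, Il24, Lilr4b, Lilrb4a, Ltb4r1, Myh11, Procr, Scd1, Slc2a2 and Tgm2 passed through the Srci1 libraries alone. Cd160, Cd79b, Cd8a, Fgr, Gzmk, Lcn10, Nrgn and Tbx21 passed through the knockout libraries alone. Of the lists described without further remark on this, 2 of 17 ATF4 targets, 1 of 11 fatty acid synthesis genes, 1 of 15 unfolded protein and heat shock genes and 1 of 15 TGFβ response genes passed through the Srci1 libraries alone. Through the knockout libraries alone passed 1 of 20 genes induced by the T cell receptor and 1 of 15 interferon-stimulated genes, and of 12 Src family genes 1 passed through each group alone. Just outside the rule, 479 genes reached 1 TPM in exactly 2 libraries. Among the 10469 genes at 1 TPM in all 6 libraries, 50.4% were called. In bulk libraries like these, fewer cells of a type and less RNA per cell cannot be told apart.

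Stat3 itself (ENSMUSG00000004040.16; GRCm38, chromosome 11, 100885098 to 100939540, minus strand) was read first as a check of the labels. It stood at 158, 152 and 161 TPM in Srci1 libraries, 33.5, 38.4 and 30.7 TPM in knockout libraries and 129.7, 133 and 99.8 TPM in DMSO libraries. Every knockout library lay far below the other 6. The log2 difference of Srci1 minus knockout was 2.17 (95% interval 1.96 to 2.39, limma adjusted p = 3.12e-10). A gene-level TPM also counts reads from exons outside a deleted part, and single exons are not analysed here. Such reads and reads from undeleted cells cannot be told apart.

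Genes were sorted into 6 groups by their differences from DMSO. Each needed a called difference of at least 2-fold between Srci1 and the knockout. A gene was lost or gained where it differed from DMSO by a called change of at least 2-fold, and kept where it lay within 1.5-fold of DMSO, a window of size and no test of equality. Median-of-ratios scaling factors were 0.94, 0.90 and 0.78 for DMSO libraries, 1.08, 1.03 and 1.05 for Srci1 libraries and 0.94, 1.04 and 0.92 for knockout libraries. The median log2 difference from DMSO over all tested genes was 0.23 with Srci1 and 0.14 in the knockout. Of all tested genes, 36.4% were higher and 7.0% lower with Srci1 than with DMSO, and 32.8% were higher and 19.0% lower in the knockout than with DMSO. These differences share the 3 DMSO libraries, so the groups are a description. There were 361 genes (3.02%) that Srci1 cultures kept and knockout cultures lost, and 507 (4.25%) that knockout cultures gained and Srci1 cultures did not. Conversely, 21 genes (0.176%) were lost with Srci1 and kept in the knockout, and 102 (0.854%) were gained with Srci1 and not in the knockout. Finally, 45 genes (0.377%) were raised with Srci1 and lost in the knockout, and 10 (0.0838%) were lost with Srci1 and raised in the knockout. Under median-of-ratios scaling these counts were 339 and 539, 40 and 57, and 23 and 13.

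**Figure D1:**
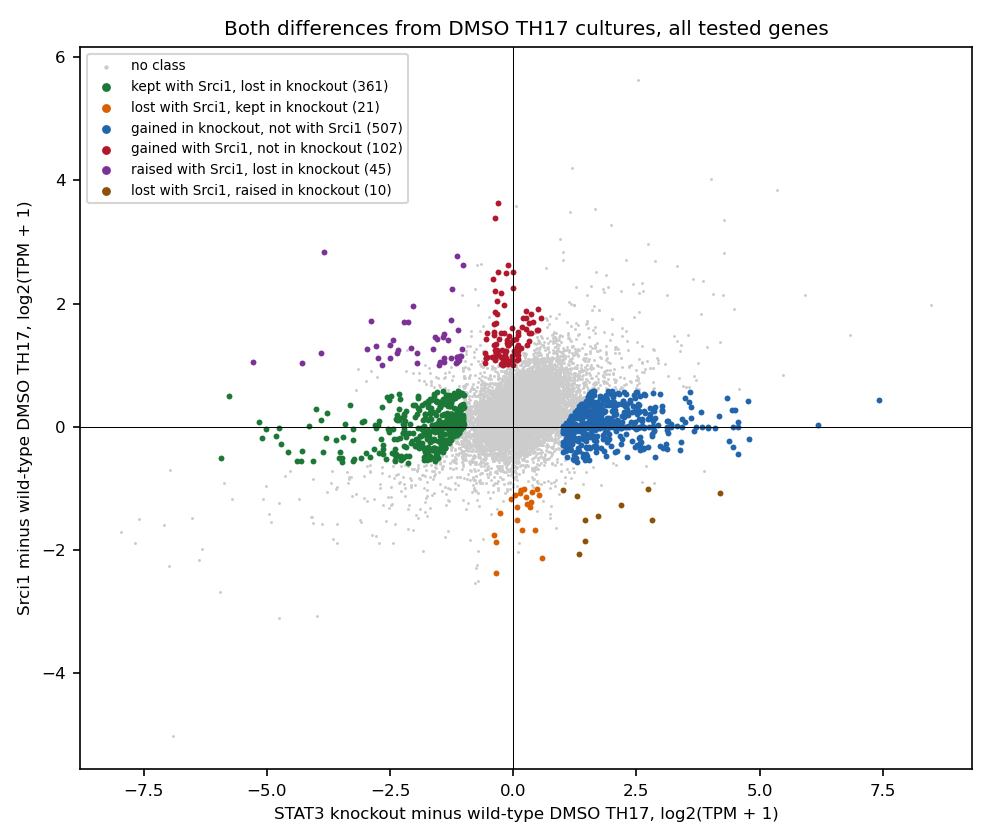
Each point is 1 of the 11937 tested genes, with its difference between knockout and DMSO TH17 libraries on the x axis and its difference between Srci1 and DMSO TH17 libraries on the y axis, both as log2(TPM + 1). Colours mark the 6 groups of genes, of which those along the horizontal axis (361 and 507 genes) hold far more points than those along the vertical axis (102 and 21 genes).

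TH17 genes were mostly higher with Srci1 than in the knockout. Of the 20 genes of a TH17 list, 18 were higher and 2 were lower, beside 32.3% and 19.4% of all tested genes. The median log2 difference of the list was 1.69, beside 0.12 over all tested genes. Of the 20 genes, 7 had passed the filter through the Srci1 libraries alone, and among the other 13 there were 11 higher and 2 lower, with a median of 1.35. Il17f, which encodes the cytokine IL-17F, stood at 552, 518 and 524 TPM with Srci1, 19.6, 18.2 and 19.4 TPM in the knockout and 2646, 2429 and 2579 TPM with DMSO. All 3 groups were apart, with Srci1 between the others (log2 difference from the knockout 4.73, 4.43 to 5.03, limma adjusted p = 3.52e-12). Il17a, the gene of IL-17A, stood at 42.05, 36.5 and 42.5 TPM with Srci1, 10.1, 8.76 and 11.7 TPM in the knockout and 1279.8, 1356 and 1378 TPM with DMSO. Both altered groups thus lay far below DMSO for Il17a, and Srci1 was 1.89 above the knockout on the log2 scale (1.64 to 2.14, limma adjusted p = 6.69e-09). Il21, an autocrine cytokine that itself signals through STAT3, was listed at 61.5, 48.7 and 53.1 TPM with Srci1 and at 0 in every knockout library, against 238, 209.6 and 168 TPM with DMSO.

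Il23r was closer to its DMSO level with Srci1 than Il17a and Il17f were. Il23r, the IL-23 receptor gene, stood at 4.86, 2.75 and 3.99 TPM with Srci1, 0, 0.03 and 0.15 TPM in the knockout and 9.69, 8.06 and 4.13 TPM with DMSO, so that Srci1 and DMSO overlapped and the knockout was near 0. Il24, a cytokine gene of the IL-10 family, averaged 20.2 ± 3.2 TPM with Srci1, 0.05 ± 0.05 TPM in the knockout and 82.7 ± 2.24 TPM with DMSO (SD, n = 3 each). The leukotriene B4 receptor gene Ltb4r1 averaged 48.8 ± 2.59 TPM with Srci1, 0.10 ± 0.09 TPM in the knockout and 149 ± 7.51 TPM with DMSO. The transcription factor genes Batf, Irf4, Maf and Rora were all within 1.5-fold of DMSO with Srci1 and at least 2-fold below it in the knockout. The members lower with Srci1 than in the knockout were the chemokine receptor gene Ccr6 and its ligand gene Ccl20. Ccr6 stood at 34.1, 26.8 and 23.6 TPM with Srci1, 55.8, 76.3 and 68.1 TPM in the knockout and 30.4, 34.7 and 19.2 TPM with DMSO, and Ccl20 at 37.3, 31.6 and 30.6 TPM with Srci1, 83.2, 84.5 and 80.3 TPM in the knockout and 140.3, 129 and 142 TPM with DMSO.

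STAT3 feedback and target genes had a median difference from DMSO of 0.39 with Srci1 and of -0.96 in the knockout on the log2 scale. Over all tested genes these medians were 0.23 and 0.14. Of the 15 tested list members, 11 were higher with Srci1 than in the knockout and 2, the survival genes Mcl1 and Bcl2l1, were lower. Over all tested genes 32.3% were higher and 19.4% lower. Among the 11 was Stat3, the deleted gene itself, so that its direction was set by the genotype. The list's median of 0.39 with Srci1 was the value of Stat3. The list's median log2 difference between Srci1 and the knockout was 1.55. Socs3 (chromosome 11, 117966079 to 117970047, minus strand), whose window before an internal RefSeq start is printed above, stood at 151, 157 and 157 TPM with Srci1, 10.4, 9.63 and 10.7 TPM in the knockout and 78.6, 88.5 and 80.3 TPM with DMSO. The lowest Srci1 library was thus above the highest DMSO library, and the knockout was below both (log2 difference 3.79, 3.64 to 3.94, limma adjusted p = 1.13e-13). Pim1, a survival kinase gene, stood at 532, 553 and 562 TPM with Srci1, 62.95, 67.1 and 65.8 TPM in the knockout and 418, 408 and 351 TPM with DMSO. Bcl3, which encodes a nuclear NF-κB cofactor, stood at 139, 151 and 152 TPM with Srci1, 23.6, 29.1 and 24.04 TPM in the knockout and 126, 142 and 139 TPM with DMSO, the Srci1 and DMSO libraries overlapping. The hypoxia factor gene Hif1a stood at 209.5, 163 and 179.9 TPM with Srci1 and 48.3, 66.7 and 49.95 TPM in the knockout (limma adjusted p = 1.86e-07). Il6st, the shared receptor chain through which IL-6 signals, did not pass the test (25.1, 23.7 and 22.9 TPM with Srci1, 17.6, 23.7 and 16.98 TPM in the knockout, limma adjusted p = 0.23).

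IL-2 and STAT5 response genes were higher with Srci1 in 11 of 11 tested cases, in 10 under median-of-ratios scaling and in 9 after quantile normalization (median log2 difference 1.69). Il2ra, the high-affinity IL-2 receptor chain, stood at 1288, 1155 and 1179.9 TPM with Srci1, 355, 425 and 336 TPM in the knockout and 785, 720.02 and 572 TPM with DMSO. Srci1 lay above DMSO and the knockout below it, with no overlap among the groups. The feedback inhibitor gene Socs2 showed the same order, at 338 ± 15.3 TPM with Srci1, 73.5 ± 10.9 TPM in the knockout and 195 ± 17 TPM with DMSO (SD, n = 3 each). Cish, another feedback inhibitor, and the cytokine gene Osm were kept with Srci1, at 209 ± 6.58 and 48.9 ± 1.15 TPM, and lost in the knockout, at 64.3 ± 3.25 and 12.1 ± 1.03 TPM, beside 217 ± 13.5 and 41.1 ± 1.72 TPM with DMSO. Among STAT and JAK genes, 7 of 10 were higher with Srci1 and 2 lower (median 0.42), 4 and 2 after quantile normalization. The 2 were near the 19.4% of all tested genes that were lower, while 32.3% of all were higher. Jak3, which encodes the kinase of the common gamma chain, averaged 133 ± 7.74 TPM with Srci1, 50.3 ± 2.88 TPM in the knockout and 140.5 ± 11.6 TPM with DMSO. Stat4 averaged 25.5 ± 2.77 TPM with Srci1, 10.8 ± 2.14 TPM in the knockout and 25.9 ± 2.34 TPM with DMSO, and Stat5a 178 ± 6.68 TPM with Srci1, 125 ± 8.72 TPM in the knockout and 194 ± 41.05 TPM with DMSO.

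**Figure D2:**
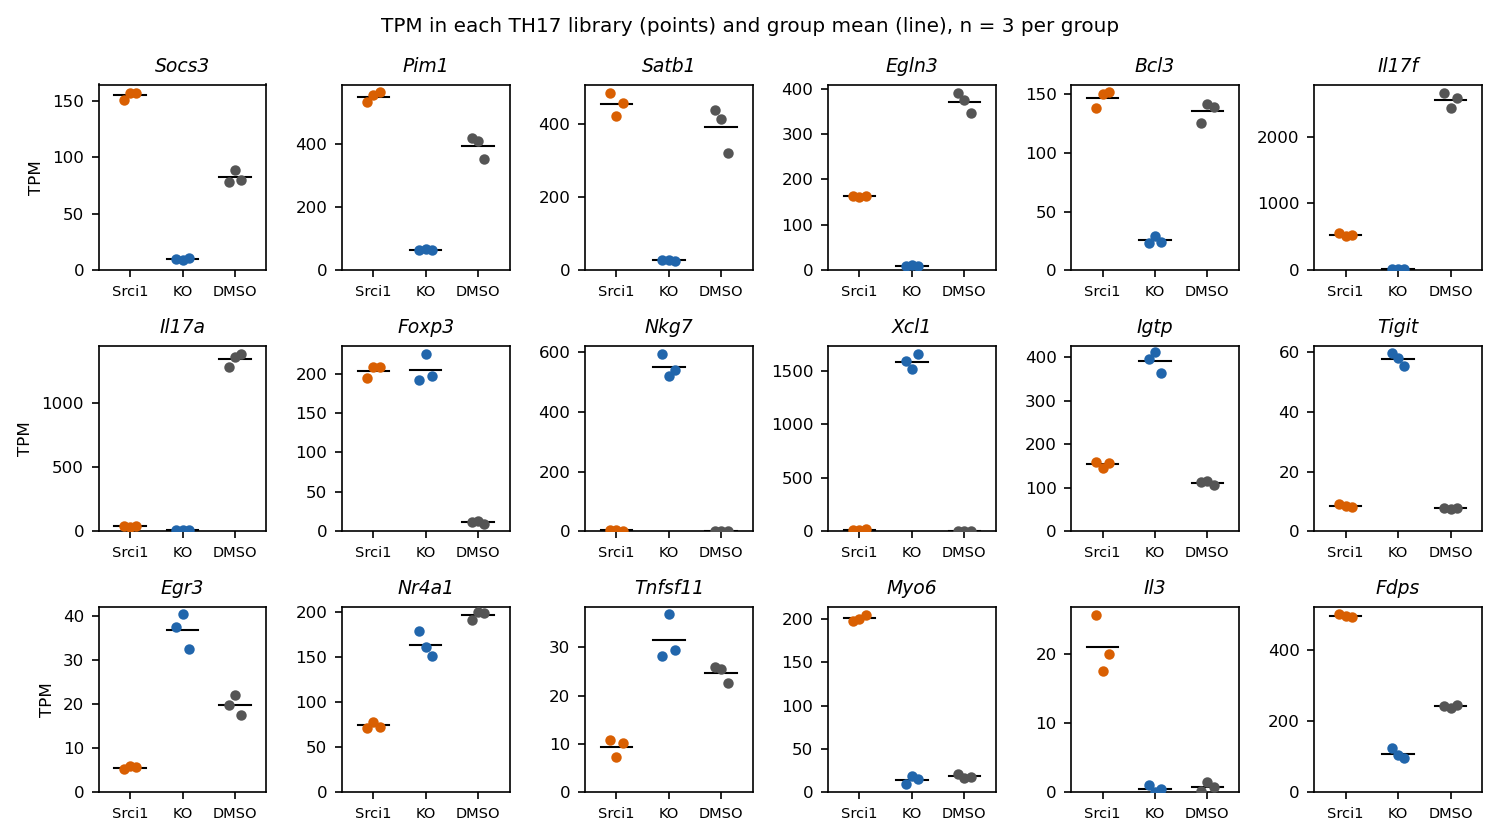
TPM of 18 genes in each TH17 library (points) and the mean of each group (line), with Srci1 on the left, the STAT3 knockout (KO) in the middle and DMSO on the right, n = 3 per group, each gene on its own linear axis from 0. Socs3, Pim1, Satb1, Egln3 and Bcl3 are lowest in the knockout, Nkg7, Xcl1, Igtp and Tigit are highest there, Egr3, Nr4a1 and Tnfsf11 are lowest with Srci1, and Foxp3 is above DMSO in every Srci1 and knockout library.

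Most of the genes furthest above the knockout with Srci1 were not cytokine genes. Ubd, which encodes the ubiquitin-like protein FAT10, stood at 224, 206 and 220.4 TPM with Srci1, 0.75, 0.81 and 2.05 TPM in the knockout and 34.9, 28.8 and 26.03 TPM with DMSO, a log2 difference of 6.68 (6.31 to 7.04). The metalloproteinase inhibitor gene Timp1 stood at 135, 127 and 130.4 TPM with Srci1, 1.2, 0.88 and 0.26 TPM in the knockout and 399, 426 and 471 TPM with DMSO, so that Srci1 cultures had less than DMSO cultures while the knockout had almost none. Upp1, which encodes a uridine phosphorylase, and the transglutaminase gene Tgm2 had the same order of groups. Upp1 averaged 187 ± 13.5 TPM with Srci1, 1.45 ± 0.42 TPM in the knockout and 303 ± 20.7 TPM with DMSO, and Tgm2 averaged 73.3 ± 0.97 TPM with Srci1, 0.08 ± 0.06 TPM in the knockout and 211 ± 32.8 TPM with DMSO. The limma adjusted p was 9.71e-13 for Ubd, 1.78e-11 for Timp1 and 5.62e-13 for Upp1.

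Among the 361 genes kept with Srci1 and lost in the knockout were genes of membrane receptors, a protease inhibitor and a chromatin organizer. Satb1, which encodes a genome organizer of T cells, stood at 486, 424 and 457 TPM with Srci1, 28.4, 28.6 and 24.8 TPM in the knockout and 438, 415 and 321 TPM with DMSO (log2 difference 4.01, limma adjusted p = 9.46e-13). Its Srci1 and DMSO libraries overlapped, and every knockout library was below both. AA467197 stood at 146, 144 and 142 TPM with Srci1, 0.42, 0.66 and 1.81 TPM in the knockout and 91.6, 103 and 113 TPM with DMSO. Procr, the endothelial protein C receptor gene, averaged 47.2 ± 2.12 TPM with Srci1, 0.14 ± 0.20 TPM in the knockout and 67.7 ± 6.96 TPM with DMSO. The protease inhibitor gene Serpinb1a averaged 81.3 ± 1.84 TPM with Srci1, 2.09 ± 0.36 TPM in the knockout and 82.8 ± 11.98 TPM with DMSO, and Tent5a, which encodes a noncanonical poly(A) polymerase, 38.5 ± 3.65 TPM with Srci1, 1.02 ± 0.40 TPM in the knockout and 31.7 ± 6.99 TPM with DMSO. Lilr4b and Lilrb4a, leukocyte immunoglobulin-like receptor genes, averaged 32.5 ± 1.32 and 29.8 ± 6.36 TPM with Srci1 and 0.12 ± 0.09 and 0.43 ± 0.25 TPM in the knockout, but these near-identical neighbours can share reads, so the split between them is uncertain. The cell cycle inhibitor gene Cdkn1a averaged 146 ± 2.37 TPM with Srci1, 20.4 ± 1.41 TPM in the knockout and 143 ± 15.1 TPM with DMSO.

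Glycolysis and hypoxia transcripts were closer to DMSO with Srci1 than in the knockout. All 24 tested genes of that list were higher with Srci1 than in the knockout, 23 under each of the 3 other scalings, with a median log2 difference of 1.49. Of all tested genes 32.3% were higher. In the list 16 genes met the rule of kept with Srci1 and lost in the knockout, beside 3.02% of all tested genes. The list's median difference from DMSO was -0.30 with Srci1 and -1.64 in the knockout, beside 0.23 and 0.14 over all tested genes. Summed over the list, glycolysis genes took 21727 to 22655 TPM in Srci1 libraries, 8340 to 9216 TPM in knockout libraries and 24026 to 24681 TPM in DMSO libraries. Slc2a1, whose promoter is printed above, stood at 96.9, 104 and 106 TPM with Srci1, 23.7, 24.03 and 22.6 TPM in the knockout and 144, 154 and 141 TPM with DMSO. Egln3, a prolyl hydroxylase that HIF induces, stood at 163, 162 and 163 TPM with Srci1, 10.4, 10.96 and 8.83 TPM in the knockout and 389.8, 374 and 346 TPM with DMSO. Every Egln3 library of Srci1 lay below DMSO and above the knockout (log2 difference from the knockout 3.89, limma adjusted p = 1.13e-13). The mitophagy receptor gene Bnip3 averaged 108 ± 6.43 TPM with Srci1, 18.4 ± 2.099 TPM in the knockout and 194 ± 5.33 TPM with DMSO, and the aldolase gene Aldoc 57 ± 3.69 TPM with Srci1, 5.73 ± 0.20 TPM in the knockout and 76.01 ± 5.25 TPM with DMSO. Ldha, the lactate dehydrogenase A gene, stood at 3049, 3059 and 2947 TPM with Srci1, 1226, 1094 and 1110.1 TPM in the knockout and 2987, 2918 and 2927 TPM with DMSO, so that Srci1 and DMSO overlapped.

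Amino acid stress and chaperone genes were also mostly higher with Srci1, by a smaller median difference. Of 17 tested targets of the factor ATF4, 15 were higher with Srci1 than in the knockout and 1 was lower, 12 and 2 under median-of-ratios scaling (median log2 difference 0.89). Over all tested genes 32.3% were higher and 19.4% lower. Asns, which encodes asparagine synthetase, stood at 53.7, 55.1 and 50.4 TPM with Srci1, 7.0, 5.66 and 5.08 TPM in the knockout and 48.4, 37.7 and 41.6 TPM with DMSO. All Srci1 libraries lay just above DMSO, a difference that did not pass the test (limma adjusted p = 0.0528), and the knockout libraries were far below both. Ddit4, an mTORC1 inhibitor gene, averaged 211 ± 14.2 TPM with Srci1, 79.2 ± 3.68 TPM in the knockout and 219.9 ± 17.98 TPM with DMSO. Trib3, a pseudokinase gene, averaged 23.9 ± 3.097 TPM with Srci1, 4.47 ± 0.44 TPM in the knockout and 10.9 ± 1.49 TPM with DMSO, and Shmt2, which encodes a mitochondrial one-carbon enzyme, 222 ± 9.35 TPM with Srci1, 118 ± 3.602 TPM in the knockout and 177 ± 7.704 TPM with DMSO. The exception was Phgdh, the first enzyme of serine synthesis, at 184, 201 and 193 TPM with Srci1 and 263, 241 and 239.6 TPM in the knockout (limma adjusted p = 0.00016). Of 15 unfolded protein and heat shock genes 13 were higher with Srci1 and 0 were lower (median 0.80), beside the same shares of all tested genes. The unfolded protein factor gene Xbp1 averaged 176 ± 2.31 TPM with Srci1, 69.9 ± 5.28 TPM in the knockout and 248 ± 3.24 TPM with DMSO. Sdf2l1, an endoplasmic reticulum chaperone component, averaged 135 ± 8.55 TPM with Srci1, 38.2 ± 2.89 TPM in the knockout and 111 ± 12.3 TPM with DMSO, and the disulfide isomerase gene Pdia6 194 ± 13.6 TPM with Srci1, 108 ± 8.42 TPM in the knockout and 228 ± 2.89 TPM with DMSO. Hspa1a, at 3.55 ± 0.30 TPM with Srci1 and 0.28 ± 0.07 TPM in the knockout, shares near-identical sequence with Hspa1b and is uncertain.

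Lipid synthesis genes were higher with Srci1 than in the knockout, and their median lay above DMSO as well. Of 23 tested cholesterol synthesis genes 22 were higher with Srci1 than in the knockout and 0 were lower, also under the 3 other scalings (median log2 difference 1.31). Over all tested genes 32.3% were higher and 19.4% lower. The list's median difference from DMSO was 1.09 with Srci1 and -0.24 in the knockout, beside 0.23 and 0.14 over all tested genes. Fdps, which encodes farnesyl diphosphate synthase, stood at 503, 498 and 493 TPM with Srci1, 124, 105 and 97.2 TPM in the knockout and 244, 236 and 247 TPM with DMSO, with no overlap among the 3 groups (log2 difference from the knockout 2.19, limma adjusted p = 5.37e-11). The mevalonate enzyme gene Mvd stood at 119.5, 128 and 132 TPM with Srci1, 28.1, 26.1 and 26.5 TPM in the knockout and 49.1, 51.2 and 50.8 TPM with DMSO. Msmo1, a sterol oxidase gene, averaged 87.8 ± 6.48 TPM with Srci1, 26.8 ± 1.52 TPM in the knockout and 39.2 ± 1.57 TPM with DMSO. The gene that was not called was Ebp, at 71.5, 97.7 and 82.05 TPM with Srci1 and 68.8, 71.9 and 81.7 TPM in the knockout.

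Of 11 fatty acid synthesis genes, 10 were higher with Srci1 and 0 lower (median log2 difference 1.63), beside 32.3% and 19.4% of all tested genes. The other, the elongase gene Elovl5, was not called, though it was lower with Srci1 under the 3 other scalings. Scd1, the stearoyl-CoA desaturase gene, stood at 149, 130.2 and 117 TPM with Srci1, 0.88, 0.51 and 0.57 TPM in the knockout and 99.8, 66.6 and 37.4 TPM with DMSO. Its DMSO libraries were spread widely, while the knockout libraries were all below 1 TPM. Fads2, a desaturase of polyunsaturated fatty acids, stood at 75.5, 77.3 and 72.9 TPM with Srci1, 4.34, 4.77 and 3.81 TPM in the knockout and 29.3, 28.9 and 25.3 TPM with DMSO. Fasn, the fatty acid synthase gene, averaged 262 ± 13.2 TPM with Srci1, 84.1 ± 2.0 TPM in the knockout and 167 ± 18.6 TPM with DMSO, and Scd2 448 ± 22.8 TPM with Srci1, 80.4 ± 8.16 TPM in the knockout and 281 ± 51.6 TPM with DMSO.

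**Figure D3:**
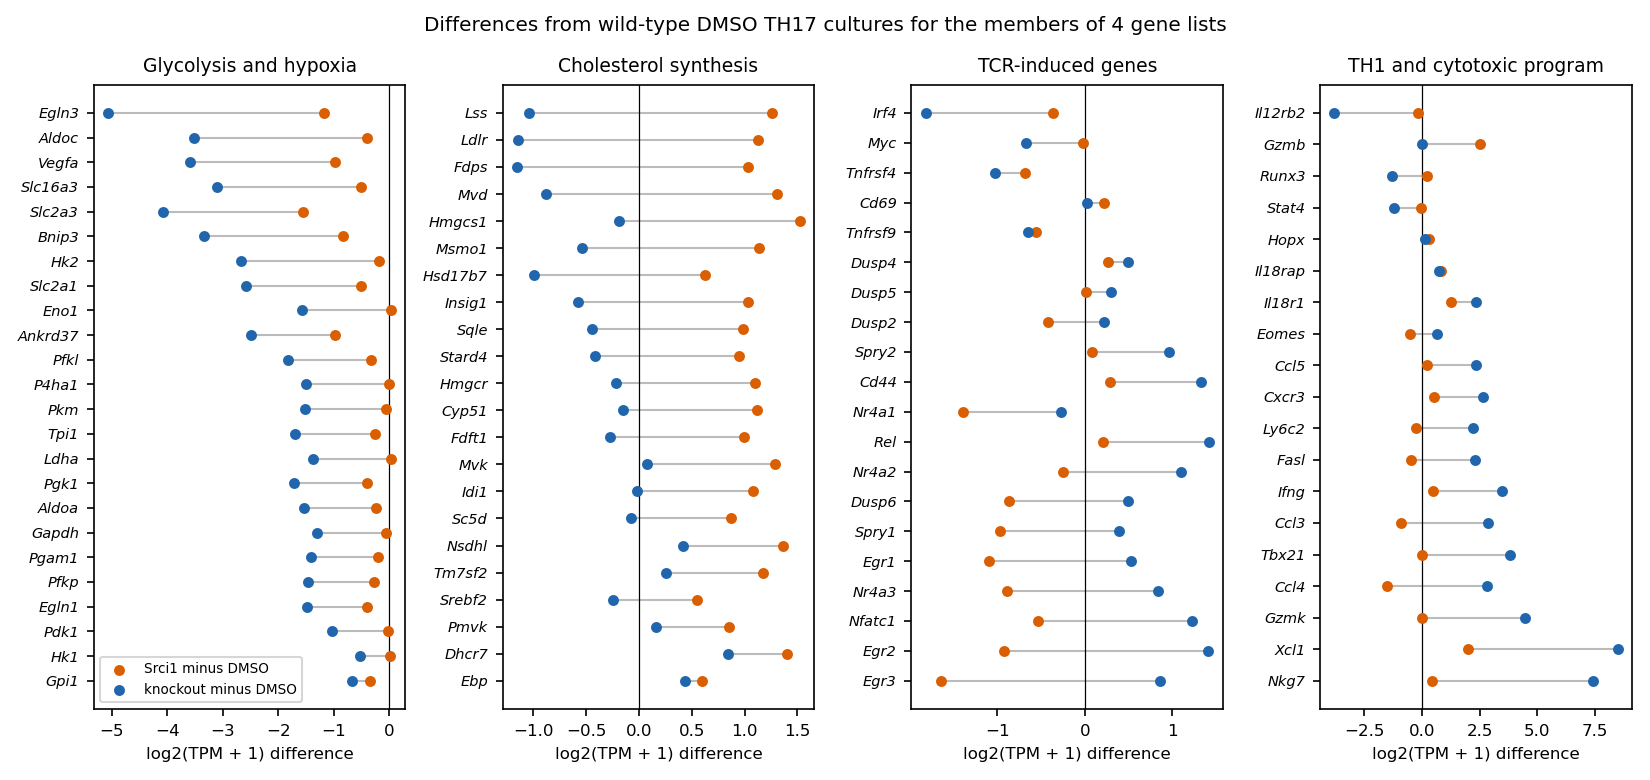
Difference from wild-type DMSO TH17 libraries on the log2(TPM + 1) scale for tested members of 4 lists, with 1 member each of the cholesterol and TH1 lists not shown, with Srci1 in orange and the STAT3 knockout in blue, joined by a line and ordered by the difference between them. Glycolysis genes lie nearer to 0 with Srci1 than in the knockout, cholesterol genes lie above 0 with Srci1, and most TCR-induced and TH1 genes lie higher in the knockout than with Srci1.

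TH1 and cytotoxic genes were mostly lower with Srci1 than in the knockout. Of 20 tested genes 14 were lower and 4 were higher, with a median log2 difference of -2.11, and 9 were gained in the knockout and not with Srci1. Over all tested genes 19.4% were lower, 32.3% higher and 4.25% gained in the knockout by that rule. Tbx21, Eomes, Gzmk and Fasl had passed the filter through the knockout libraries alone. Among the other 16 list members there were 10 lower and 4 higher, with a median of -1.84, and 6 were gained in the knockout. Nkg7 (chromosome 7, 43437073 to 43438249, plus strand), which encodes a cytotoxic granule protein, stood at 4.06, 4.51 and 1.99 TPM with Srci1, 593, 521 and 539.5 TPM in the knockout and 1.76, 2.34 and 2.64 TPM with DMSO. Xcl1, a chemokine of activated CD8 T and NK cells, stood at 13.7, 15.1 and 21.2 TPM with Srci1, 1588, 1513 and 1652 TPM in the knockout and 2.37, 3.09 and 5.2 TPM with DMSO. The knockout libraries stood apart from both other groups for these genes (log2 differences -6.98 and -6.51, limma adjusted p = 9.6e-13 and 1.89e-12), and the 3 Srci1 libraries of Xcl1 were all above those of DMSO. Tbx21, the gene of the TH1 factor T-bet, stood at 0.49, 0.58 and 0.74 TPM with Srci1, 24.7, 21.7 and 19.3 TPM in the knockout and 0.48, 0.60 and 0.73 TPM with DMSO. Ifng, the IFNγ gene, stood at 0.65, 0.39 and 2.25 TPM with Srci1, 16.9, 15.1 and 12.7 TPM in the knockout and 0.25, 0.60 and 0.42 TPM with DMSO. The granzyme gene Gzmk was listed at 0 in the Srci1 and DMSO libraries and at 20.5, 24.97 and 18.4 TPM in the knockout.

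The 4 members of the TH1 list that were higher with Srci1 were Gzmb, Il12rb2, Stat4 and Runx3. Gzmb, the granzyme B gene, stood at 45.6, 41.3 and 44.2 TPM with Srci1, 7.37, 6.41 and 6.77 TPM in the knockout and 6.51, 6.94 and 7.07 TPM with DMSO, so that Srci1 alone stood apart and knockout and DMSO overlapped (log2 difference 2.51, limma adjusted p = 9.98e-13). Il12rb2, the IL-12 receptor beta 2 chain gene, stood at 27, 21.8 and 22.6 TPM with Srci1, 1.1, 1.39 and 0.65 TPM in the knockout and 35.3, 29.5 and 18.9 TPM with DMSO. Runx3, a factor shared by TH1 and CD8 T cells, stood at 48.7, 53.01 and 53.2 TPM with Srci1, 17.1, 18.4 and 17.8 TPM in the knockout and 45.8, 52.8 and 36.3 TPM with DMSO, and like Il12rb2 and Stat4 was kept with Srci1 and lost in the knockout.

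Most interferon-stimulated genes were also lower with Srci1. Of 15 tested, 12 were lower than in the knockout and 0 were higher (median log2 difference -1.31), and 7 met the rule of gained in the knockout and not with Srci1. Over all tested genes 19.4% were lower, 32.3% higher and 4.25% gained in the knockout by that rule. Iigp1, an interferon-inducible GTPase gene, stood at 1.26, 1.64 and 1.24 TPM with Srci1, 46.6, 71.1 and 58.5 TPM in the knockout and 0.45, 0.31 and 0.24 TPM with DMSO. The related GTPase genes Irgm1, Igtp and Ifi47 averaged 18.1 ± 0.78, 154 ± 6.91 and 106 ± 6.01 TPM with Srci1, 80.2 ± 5.62, 389.9 ± 24.2 and 282 ± 8.46 TPM in the knockout, and 14.1 ± 1.55, 112 ± 4.61 and 81.7 ± 6.05 TPM with DMSO (SD, n = 3 each). The antiviral genes Ifit1, Mx1, Oasl2, Oas1a and Rsad2 of the list did not pass the filter. Isg15, Stat2 and Bst2 were not called.

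**Figure D4:**
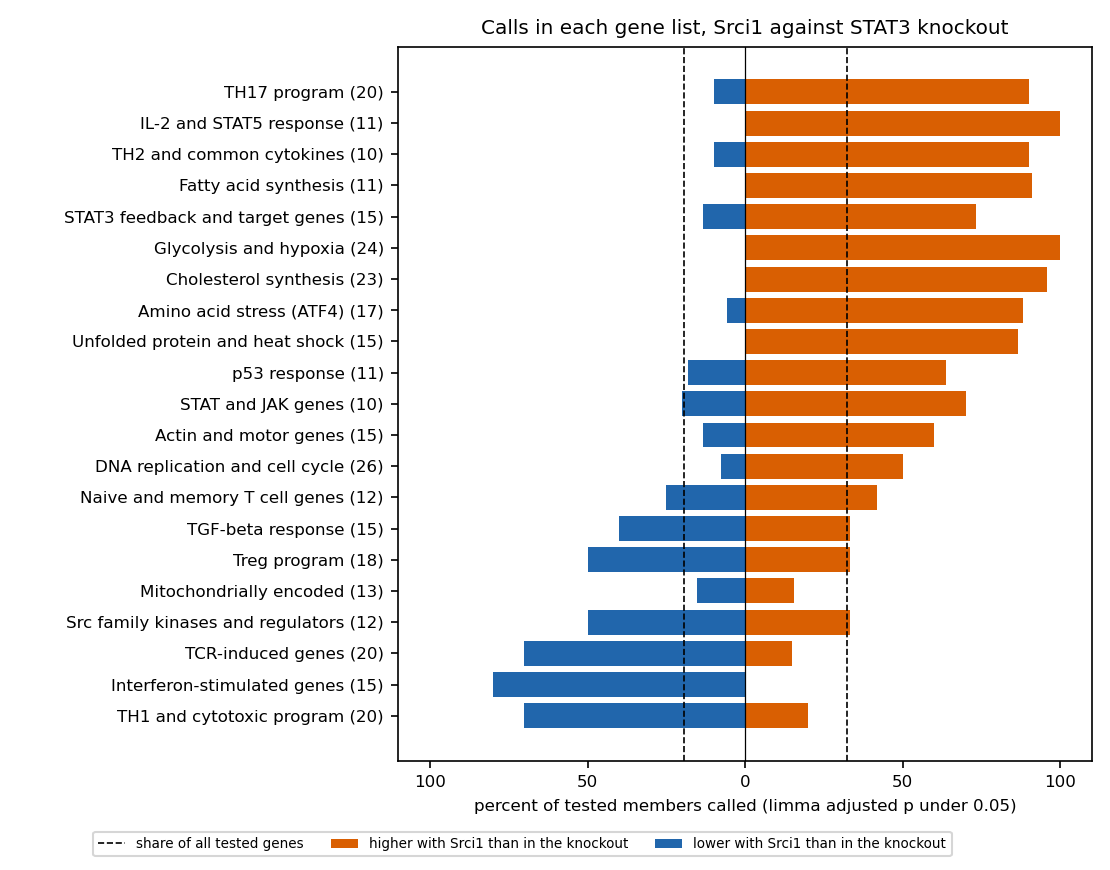
Percent of each list's tested members (number in brackets) called higher with Srci1 than in the knockout (orange, to the right) or lower (blue, to the left) by limma, with dashed lines at the shares of all tested genes (32.3% and 19.4%), members that passed the filter through 1 group alone included. Glycolysis (24 of 24) and IL-2 and STAT5 response genes (11 of 11) are entirely to the right, while interferon-stimulated (12 of 15), TH1 and TCR-induced genes (14 of 20 each) lie mainly to the left.

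Outside these lists, the genes furthest below the knockout level were Lcn10, Ccl1, Ms4a4c, Cd160, Nrgn and Gbp6. Lcn10, a lipocalin gene, stood at 0, 0 and 0.08 TPM with Srci1 and 78.4, 67.8 and 70.3 TPM in the knockout, and was listed at 0 in every DMSO library. Ccl1, a chemokine gene of activated T cells, stood at 1.67, 2.61 and 2.93 TPM with Srci1, 139.8, 131 and 134 TPM in the knockout and 0.41, 0.20 and 0 TPM with DMSO. Cd160, which encodes a receptor of cytotoxic lymphocytes, averaged 0.62 ± 0.12 TPM with Srci1, 50.9 ± 2.59 TPM in the knockout and 1.197 ± 0.18 TPM with DMSO. Neurogranin (Nrgn), a calmodulin-binding protein gene best known from neurons, averaged 0.02 ± 0.03 TPM with Srci1, 31.3 ± 3.73 TPM in the knockout and 0.17 ± 0.06 TPM with DMSO, the guanylate-binding protein gene Gbp6 0.83 ± 0.37 TPM with Srci1, 48.9 ± 8.95 TPM in the knockout and 1.303 ± 0.57 TPM with DMSO, and the calpain gene Capn3 2.75 ± 0.91 TPM with Srci1, 90.7 ± 25.6 TPM in the knockout and 3.43 ± 1.13 TPM with DMSO. The knockout libraries of Capn3 were uneven, at 76.7, 75.2 and 120.2 TPM.

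Markers of other cells went in both directions, and their part in the genes gained in the knockout was not tested. Leaving out members that passed the filter through 1 group alone, 2 B cell markers were lower with Srci1 and 0 higher. Myeloid and dendritic cell markers then had 2 lower and 1 higher, and CD8 T and NK cell markers 1 lower and 1 higher. Of 6 tested B cell markers 5 were lower with Srci1 than in the knockout and 1 was higher, but 3 of the lower and the higher one had passed the filter through 1 group alone. The 8 listed markers summed to 515 to 548 TPM with Srci1, 699 to 801 TPM in the knockout and 116 to 120 TPM with DMSO. Most of that sum was Ighm, at 543, 508 and 533 TPM with Srci1, 763, 713 and 656 TPM in the knockout and 111, 114 and 116 TPM with DMSO, whereas the B cell markers Ms4a1 and Pax5 stayed below 0.5 TPM in all 6 libraries. Cd79b, which encodes a chain of the B cell receptor, stood at 0.34, 0.47 and 0.68 TPM with Srci1, 8.99, 7.16 and 8.16 TPM in the knockout and 0.13, 0.33 and 0.29 TPM with DMSO. The higher member was Ebf1, a B cell factor gene. Of 26 tested immunoglobulin variable segment and Ighg genes, 25 had passed the filter through the knockout libraries alone, so that nothing is read from the 24 of them among the genes gained in the knockout (4.25% of all tested genes). Of 5 tested myeloid and dendritic cell markers 4 were lower with Srci1 and 1 higher, with list sums of 78.4 to 95.9 TPM with Srci1, 179 to 218 TPM in the knockout and 102 to 122 TPM with DMSO. The 5 tested were Itgam and genes of MHC class II presentation, of which Itgam and H2-Aa had passed through the knockout libraries alone. Cd74, the invariant chain gene, stood at 49.9, 61.3 and 55.4 TPM with Srci1, 169.8, 144 and 147 TPM in the knockout and 33.9, 37.5 and 43.8 TPM with DMSO, while H2-Ab1 was the higher member, at 26.2, 31.8 and 29.5 TPM with Srci1, 13.1, 9.38 and 9.8 TPM in the knockout and 64.6, 74.1 and 75.8 TPM with DMSO. Lyz2, Csf1r, Itgax and Cd14 were below 0.5 TPM in all 6 libraries. Cd8a stood at 0.67, 0.68 and 0.40 TPM with Srci1, 4.68, 5.36 and 4.18 TPM in the knockout and 0.05, 0 and 0 TPM with DMSO, and the NK cell receptor gene Ncr1 was listed at 0 in all 6. Of 5 tested CD8 T and NK cell markers 3 were lower with Srci1, of which Cd8a and Eomes had passed through the knockout libraries alone, and 1, Klrd1, was higher, and the list summed to 91.0 to 119 TPM with Srci1, 22.0 to 25.5 TPM in the knockout and 53.6 to 56.2 TPM with DMSO, most of it Klrd1 in Srci1 and DMSO libraries. CD4 T cell markers were abundant in both groups and summed to 4473 to 4610 TPM with Srci1 and 5004 to 5666 TPM in the knockout. Among them Cd3e, Cd3d and Cd3g were lower with Srci1, Cd3g at 342, 336 and 328 TPM with Srci1 and 811, 724 and 747 TPM in the knockout, while Thy1 was higher, at 949, 973 and 976 TPM with Srci1 and 537, 487 and 509 TPM in the knockout. Of 11 CD4 T cell markers 2 were higher and 6 lower, beside 32.3% and 19.4% of all tested genes. The γδ T cell list had 1 higher and 1 lower gene of 3 tested, summing to 14.7 to 21.1 TPM with Srci1 and 16.6 to 20.9 TPM in the knockout. Red blood cell and fibroblast markers were at most 7.33 and 3.53 TPM in sum with Srci1 and 0.87 and 0.67 TPM in the knockout, with the 2 tested genes of each list passing the filter through the Srci1 libraries alone, and 0 of 5 sex-linked genes were called.

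Genes induced by the T cell receptor were mostly lower with Srci1 than in the knockout. Of 20 such genes 14 were lower and 3 were higher (median log2 difference -1.09), beside 19.4% and 32.3% of all tested genes. The list's median difference from DMSO was -0.47 with Srci1 and 0.49 in the knockout, beside 0.23 and 0.14 over all tested genes. Egr3, an immediate-early factor gene, stood at 5.21, 5.99 and 5.67 TPM with Srci1, 37.5, 40.4 and 32.5 TPM in the knockout and 19.8, 22.2 and 17.4 TPM with DMSO, with Srci1 lowest, the knockout highest and no overlap (log2 difference -2.51, -2.72 to -2.29, limma adjusted p = 7.04e-11). Egr2 stood at 4.3, 7.0 and 5.84 TPM with Srci1, 37.1, 31.4 and 29.4 TPM in the knockout and 11.8, 12.4 and 10.6 TPM with DMSO, in the same order of groups. Nr4a1, a nuclear receptor gene used as a reporter of receptor signal strength, stood at 71.8, 78.1 and 72.9 TPM with Srci1, 179, 161 and 152 TPM in the knockout and 192, 199.8 and 199 TPM with DMSO, so that here the knockout was nearer to DMSO. Dusp6, a phosphatase gene that limits ERK signalling, stood at 9.3, 7.74 and 9.31 TPM with Srci1, 27.3, 25.5 and 20.0 TPM in the knockout and 17.4, 17.9 and 15.3 TPM with DMSO. The 3 members higher with Srci1 were Irf4, Myc and Tnfrsf4, and Irf4 belongs to the TH17 list as well. Myc stood at 253, 252 and 258 TPM with Srci1, 163, 164 and 158 TPM in the knockout and 240.02, 263 and 274 TPM with DMSO.

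In all, 21 genes met the rule of lost with Srci1 and kept in the knockout. They were Egr1, Nr4a1, Tnfsf11, Tnfsf14, Cavin3, Cdh23, Dnm3, Gstp3, Bcl2a1d, Cd24a, Fhit, Kcnmb4, Plek, Spin4, Srgap3, Stard10 and Sp3os, with 4 unnamed gene models. Tnfsf11, which encodes the cytokine RANKL, stood at 10.8, 7.35 and 10.2 TPM with Srci1, 28.1, 36.9 and 29.4 TPM in the knockout and 25.8, 25.5 and 22.5 TPM with DMSO. Egr1 stood at 13.3, 13.5 and 13.2 TPM with Srci1, 49.2, 45.9 and 35.7 TPM in the knockout and 29.4, 32.1 and 27.6 TPM with DMSO. For both genes every Srci1 library lay far below the other groups, and every knockout library lay above DMSO. That rise stayed within the 1.5-fold window but was called. Its log2 size was 0.53 for Egr1 (limma adjusted p = 0.000584) and 0.33 for Tnfsf11 (limma adjusted p = 0.0422). Bcl2a1d has near-identical relatives that can share its reads. Gstp3, a glutathione transferase gene, averaged 39.05 ± 3.83 TPM with Srci1, 119 ± 9.14 TPM in the knockout and 113 ± 7.84 TPM with DMSO. The caveola gene Cavin3, the cadherin gene Cdh23 and the dynamin gene Dnm3 averaged 0.88 ± 0.59, 1.32 ± 0.50 and 1.603 ± 0.03 TPM with Srci1, 6.46 ± 1.499, 7.24 ± 1.11 and 6.803 ± 0.96 TPM in the knockout, and 8.64 ± 2.49, 6.66 ± 3.24 and 5.09 ± 0.93 TPM with DMSO.

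Opposite moves in that direction, down with Srci1 and up in the knockout, were found for 10 genes, Ccl4, Crtam, Pdcd1, Angptl2, Spp1, Ms4a4c, Myb, Rgs16, Slc9b2 and 1 unnamed gene model. Pdcd1, which encodes the inhibitory receptor PD-1, stood at 9.92, 10.2 and 9.29 TPM with Srci1, 119, 117 and 117 TPM in the knockout and 27.6, 25.4 and 22.2 TPM with DMSO (log2 difference -3.46, -3.63 to -3.28, limma adjusted p = 5.37e-13). The chemokine gene Ccl4 stood at 11.6, 9.78 and 10.1 TPM with Srci1, 247, 210.4 and 232 TPM in the knockout and 30.6, 29.1 and 35.6 TPM with DMSO. Each group was apart from the other 2 for both genes. Angptl2, which encodes a secreted angiopoietin-like protein, averaged 6.42 ± 0.49 TPM with Srci1, 77.6 ± 4.55 TPM in the knockout and 30.4 ± 5.19 TPM with DMSO, and Spp1, the osteopontin gene, 1.48 ± 0.55 TPM with Srci1, 23.5 ± 2.53 TPM in the knockout and 7.89 ± 1.06 TPM with DMSO. Crtam, a receptor gene of cytotoxic T cells, averaged 1.203 ± 0.51 TPM with Srci1, 28.01 ± 2.93 TPM in the knockout and 3.36 ± 0.56 TPM with DMSO. Ms4a4c was uneven within the knockout, at 57.2, 119 and 92.1 TPM, beside 1.56, 1.91 and 0.51 TPM with Srci1 and 3.08, 3.64 and 4.59 TPM with DMSO.

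By contrast, 45 genes were raised with Srci1 and lost in the knockout, among them Ubd, Scd1, Fads2, Fdps and Trib3 described above. Klrd1 and Klrc1 encode CD94 and NKG2A, which pair as an inhibitory receptor. Klrd1 stood at 104, 77.1 and 86.1 TPM with Srci1, 0.91, 1.84 and 1.05 TPM in the knockout and 44.8, 41.1 and 42.5 TPM with DMSO. Klrc1, a member of a family of near-identical genes that can share reads, stood at 96.9, 71.2 and 74.3 TPM with Srci1, 0.50, 3.01 and 1.19 TPM in the knockout and 34.3, 32.4 and 36.3 TPM with DMSO. All 3 groups were apart for both. Myh11, a myosin heavy chain gene best known from smooth muscle, averaged 23.9 ± 3.099 TPM with Srci1, 0.03 ± 0.02 TPM in the knockout and 6.64 ± 1.45 TPM with DMSO, and the actin regulator gene Enah 33.6 ± 1.82 TPM with Srci1, 0.91 ± 0.52 TPM in the knockout and 13.6 ± 1.74 TPM with DMSO.

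Among the 102 genes gained with Srci1 and not in the knockout, Myo6, which encodes the motor protein myosin VI, stood at 198, 199 and 204 TPM with Srci1, 9.4, 18.9 and 15.3 TPM in the knockout and 21.5, 16.2 and 17.5 TPM with DMSO (log2 difference 3.75, 3.33 to 4.16, limma adjusted p = 1.04e-09). The cytokine gene Il3 stood at 25.6, 17.5 and 20.1 TPM with Srci1, 1.08, 0 and 0.43 TPM in the knockout and 0.25, 1.5 and 0.78 TPM with DMSO. H19, an imprinted noncoding RNA gene, stood at 76.1, 72.8 and 68.7 TPM with Srci1, 9.55, 8.34 and 10.97 TPM in the knockout and 15.9, 14.1 and 9.82 TPM with DMSO. Srci1 libraries stood clear of both other groups for each of these, and knockout and DMSO libraries overlapped. Smaller levels were reached by Myadm, at 19.5 ± 0.30 TPM with Srci1, 2.26 ± 0.16 TPM in the knockout and 2.64 ± 0.36 TPM with DMSO, and by the glucose transporter gene Slc2a2, at 6.88 ± 1.13 TPM with Srci1, 0.18 ± 0.02 TPM in the knockout and 0.27 ± 0.07 TPM with DMSO. Rsph3a, a radial spoke gene with a close relative that can share its reads, averaged 171 ± 22.4 TPM with Srci1, 28.7 ± 9.63 TPM in the knockout and 37.5 ± 11.8 TPM with DMSO.

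Foxp3 was not called. The gene of the Treg lineage factor (chromosome X, 7573644 to 7595245, plus strand) stood at 194, 208 and 209 TPM with Srci1, 192, 225 and 197 TPM in the knockout and 12.2, 13.6 and 9.37 TPM with DMSO. Srci1 and knockout libraries overlapped, with a log2 difference of -0.0047 (95% interval -0.22 to 0.21, limma adjusted p = 0.973), an interval that holds differences of either sign. After quantile normalization the log2 difference was -0.20 and passed the test (limma adjusted p = 0.0414). Of the 18 tested genes of the Treg list, 6 were higher and 9 lower with Srci1 than in the knockout (median -0.11), 4 and 9 under median-of-ratios scaling. The 6 were near the 32.3% of all tested genes that were higher, while 19.4% of all were lower. Tigit, an inhibitory receptor gene, stood at 9.12, 8.56 and 8.12 TPM with Srci1, 59.5, 57.95 and 55.3 TPM in the knockout and 7.86, 7.41 and 7.75 TPM with DMSO. Itgae, which encodes the integrin CD103, stood at 8.85, 7.34 and 7.99 TPM with Srci1, 128, 135 and 109.6 TPM in the knockout and 1.22, 1.19 and 0.77 TPM with DMSO. The enkephalin gene Penk averaged 0.90 ± 0.25 TPM with Srci1, 33.3 ± 6.26 TPM in the knockout and 0.57 ± 0.10 TPM with DMSO. In the other direction, Lrrc32, which encodes the latent TGFβ anchor GARP, averaged 133 ± 6.396 TPM with Srci1, 29.6 ± 0.61 TPM in the knockout and 85.8 ± 14.2 TPM with DMSO.

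A list of TH2 and common cytokine genes, which also holds receptors and transcription factors, had 9 of 10 tested members higher with Srci1 and 1 lower (median log2 difference 1.65). Of the 9, Il4 and Il1rl1 had passed the filter through the Srci1 libraries alone. Il9 stood at 52.3, 41.6 and 40.3 TPM with Srci1, 4.07, 3.99 and 2.43 TPM in the knockout and 8.49, 4.23 and 7.09 TPM with DMSO. The IL-4 receptor gene Il4ra averaged 256 ± 4.03 TPM with Srci1, 63.1 ± 1.46 TPM in the knockout and 222 ± 30.9 TPM with DMSO, the chemokine receptor gene Ccr4 169 ± 7.99 TPM with Srci1, 50.2 ± 5.71 TPM in the knockout and 129 ± 30.2 TPM with DMSO, and the transcription factor gene Nfil3 35.6 ± 1.27 TPM with Srci1, 11.3 ± 0.25 TPM in the knockout and 64.5 ± 4.88 TPM with DMSO. Of 12 naive and memory genes, 5 were higher and 3 lower, beside 32.3% and 19.4% of all tested genes, with a median of 0.03 that turned negative under the other scalings (-0.10 under median-of-ratios). Besides Satb1, the egress receptor gene S1pr1 averaged 75.7 ± 5.83 TPM with Srci1, 26.9 ± 2.47 TPM in the knockout and 42.1 ± 1.495 TPM with DMSO, while Id3, an inhibitor of E proteins, averaged 17.6 ± 1.099 TPM with Srci1, 54.6 ± 3.54 TPM in the knockout and 25.4 ± 3.86 TPM with DMSO. Of 15 TGFβ response genes, 5 were higher, a share near that of all tested genes (32.3%), and 6 were lower (19.4% of all tested genes), with a median of 0.01 that turned to -0.11 under median-of-ratios scaling. The receptor gene Tgfbr1 averaged 8.22 ± 1.32 TPM with Srci1, 34.9 ± 7.26 TPM in the knockout and 5.32 ± 1.51 TPM with DMSO, its inhibitor gene Ldlrad4 8.64 ± 0.81 TPM with Srci1, 29.5 ± 5.11 TPM in the knockout and 4.82 ± 0.63 TPM with DMSO, and the signal transducer gene Smad3 25.96 ± 1.26 TPM with Srci1, 7.17 ± 0.35 TPM in the knockout and 29.7 ± 8.599 TPM with DMSO.

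Src family kinases and their regulators were read because they act between the T cell receptor and its targets. Of 12 tested genes 4 were higher with Srci1 than in the knockout and 6 lower (median -0.30), 4 and 8 after quantile normalization. The 4 were near the 32.3% of all tested genes that were higher, while 19.4% of all were lower. Lck, the main Src family kinase of T cells, stood at 393, 413 and 406 TPM with Srci1, 518, 516 and 509 TPM in the knockout and 398, 423 and 385 TPM with DMSO, Srci1 and DMSO overlapping (limma adjusted p = 2.26e-05). Csk, which inhibits these kinases, averaged 348 ± 23.7 TPM with Srci1, 237 ± 20.9 TPM in the knockout and 248 ± 8.33 TPM with DMSO, and the phosphatase gene Ptpn22 30.1 ± 2.79 TPM with Srci1, 103 ± 10.7 TPM in the knockout and 55.5 ± 5.64 TPM with DMSO. Fgr was near 0 with Srci1 and DMSO and at 1.38, 1.03 and 1.39 TPM in the knockout. Src itself was low, at 2.02, 2.56 and 2.54 TPM with Srci1, 3.92, 3.4 and 3.57 TPM in the knockout and 0.87, 1.39 and 0.73 TPM with DMSO (log2 difference -0.46, limma adjusted p = 0.0281). That call ended with a pseudocount of 0.1 TPM (limma adjusted p = 0.0887) and without Srci1 replicate 1, knockout replicate 1 or knockout replicate 3 (0.102, 0.0837 and 0.0557).

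The groups of genes defined in TH17 cultures were then read in the 6 Treg libraries, whose levels had not been used to form them. These were wild-type cultures grown with TGFβ and IL-2 that received Srci1 or DMSO, 3 libraries each. Over all tested genes 18.1% were higher and 9.9% were lower with Srci1 in Treg cultures. The effect of Srci1 in TH17 cultures minus that in Treg cultures was called positive for 11.8% of tested genes and negative for 2.94%. Of the 361 genes kept with Srci1 in TH17 cultures and lost in the knockout, 157 (43.5%) were lower with Srci1 in Treg cultures and 31 higher. Slc2a1 averaged 49.2 ± 0.64 TPM with Srci1 and 108 ± 0.26 TPM with DMSO in Treg cultures, and Asns 24.7 ± 3.86 TPM with Srci1 and 83.8 ± 2.304 TPM with DMSO. Both genes were within 1.5-fold of DMSO with Srci1 in TH17 cultures. Slc2a1 was still called lower with Srci1 there too (log2 difference from DMSO -0.51, limma adjusted p = 1.09e-05). Genes lost with Srci1 and kept in the knockout were lower in 13 of 21 cases (61.9%) in Treg cultures too, and higher in 0. Egr1 averaged 25.6 ± 1.21 TPM with Srci1 and 76.6 ± 2.06 TPM with DMSO there, and Nr4a1 132 ± 3.26 TPM with Srci1 and 372 ± 10.1 TPM with DMSO. Of the 10 genes lost with Srci1 and raised in the knockout 7 were lower in Treg cultures, Pdcd1 at 35.4 ± 2.72 TPM with Srci1 and 79.1 ± 1.68 TPM with DMSO. Genes gained with Srci1 alone were higher in 36 of 102 cases (35.3%) and lower in 4, Myo6 at 153 ± 29.1 TPM with Srci1 and 17.4 ± 0.75 TPM with DMSO. Genes gained in the knockout and not with Srci1 were higher in 72 and lower in 92 of 507 cases, and genes raised with Srci1 and lost in the knockout were higher in 13 and lower in 6 of 45 cases.

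**Figure D5:**
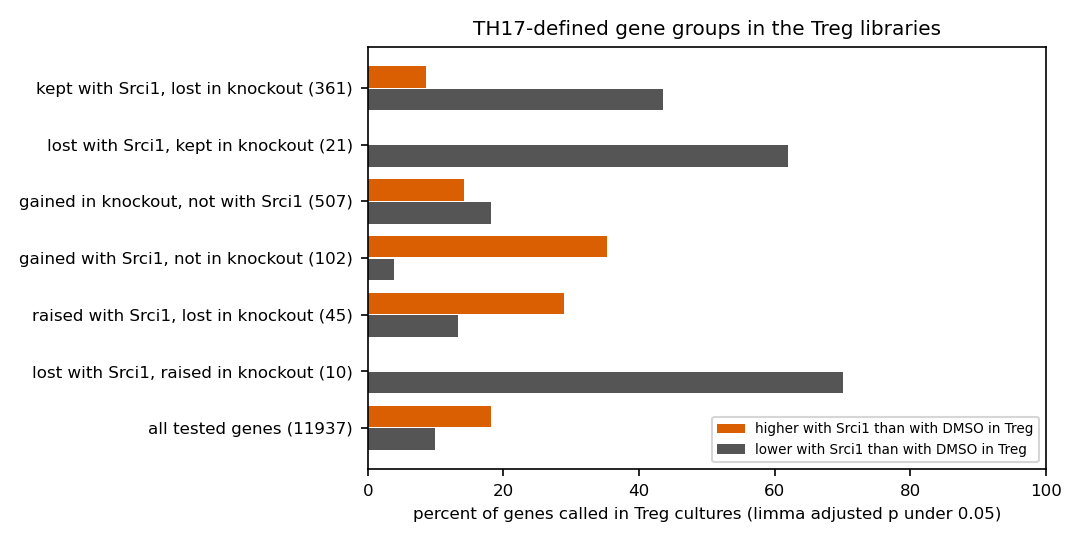
Percent of each gene group (number of genes in brackets) called higher (orange) or lower (grey) with Srci1 than with DMSO in Treg cultures by limma, 3 libraries per group, with all 11937 tested genes at the bottom. Genes lost with Srci1 in TH17 cultures were lower in 61.9 and 70.0% of cases, against 9.9% of all tested genes.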

How the data were processed

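Poly(A) RNA-seq libraries of 15 mouse T cell cultures were read from the table of TPM per gene and library that the authors deposited. The submitters' processing notes name RSEM 1.3.3, STAR 2.7.9a and the GRCm38 build. Their roles, the annotation release, strand setting and filters are stated in none of the sources used here. The table held 55421 gene IDs, of which 55154 had a symbol, 106 symbols stood on more than 1 ID and 55240 IDs had a GENCODE M21 record, from which coordinates were taken. Promoters came from RefSeq (GRCm38.p6). TPM fixes each library's total, so depth is unknown and values are shares.

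Genes at 1 TPM or more in at least 3 of the 6 compared libraries were tested. Values were log2(TPM + 1), so that fold changes of low genes are understated. limma 3.58.1 in R 4.3.3 fitted 5 group means to all 15 libraries, which share 1 variance estimate, with a variance trend and Benjamini-Hochberg adjustment over all 11937 genes at 0.05. The script was tested on simulated data. The text names 10 set genes, the 8 largest called differences in each direction, 6 per gene group and up to 4 per list. The largest differences and gene group picks needed libraries that do not overlap and a mean of at least 5 TPM in the highest group. They left out unnamed models, pseudogenes, mitochondrial genes, and immunoglobulin and receptor segments. List picks had the smallest adjusted p and were under none of these conditions. Other list members were named after their values were seen. Some genes that these rules pick are not reported here. The members and the 21 program and 8 marker lists were chosen with earlier results of these data known. Alternatives covered the pseudocount, filter, scaling, array weights, samples in the fit, the replicate block and leaving out each TH17 library.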

Additional observations from a re-analysis of the deposited data

Results flagged for a closer look

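The response to Srci1 differed between TH17 and Treg cultures for part of each gene group, by an interaction term in limma (adjusted p under 0.05). Over all tested genes the effect was larger in the positive direction in TH17 cultures for 11.8% and in the negative direction for 2.94%. The effect differed for 131 of the 361 genes kept with Srci1 and lost in the knockout, for 6 of the 21 lost with Srci1 and kept in the knockout, and for 94 of the 507 gained in the knockout and not with Srci1. It differed for 71 of the 102 genes gained with Srci1 alone, 33 of the 45 raised with Srci1 and lost in the knockout, and 6 of the 10 lost with Srci1 and raised in the knockout. These groups were formed in part on the TH17 effect. For the 361 and the 507 genes an effect within 1.5-fold was built in. For the 21, 102, 45 and 10 genes an effect of at least 2-fold was built in. These counts are therefore a description.

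For 13 named genes the effect of Srci1 on TPM had opposite signs in TH17 and Treg cultures, and the interaction term passed the test. The median tested gene was 0.23 higher with Srci1 in TH17 cultures and 0.12 higher in Treg cultures on the log2 scale. Some TH17 effects, as for Stat3, Irgm1 and Shmt2, were not far above that median, so that their sign may depend on the scaling. These signs were not looked at under the other scalings. The log2 effect in TH17 minus that in Treg cultures was 1.19 for Stat3 (0.39 in TH17, -0.80 in Treg, limma adjusted p = 8.26e-05), 3.34 for Ubd (2.83 and -0.51) and 5.29 for Il3 (3.62 and -1.67). It was 3.19 for Klrc1 (1.20 and -1.996), 3.93 for Gzmb (2.51 and -1.42, limma adjusted p = 5.43e-12) and -1.54 for Id3 (-0.49 and 1.05). Among lipid and stress genes it was 1.07 for Scd2, 0.55 for Shmt2, 1.87 for Trib3 and 1.501 for Hspa1a. Among interferon-inducible GTPase genes it was 1.56 for Iigp1 (0.83 and -0.72), 1.12 for Irgm1 (0.35 and -0.78) and 0.93 for Igtp (0.46 and -0.47).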

How the results depend on the processing

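Of 122 named genes, 117 kept their direction and their call under each of the 19 alternatives run on them, and the others were Foxp3, Src, mt-Nd1, mt-Nd2 and mt-Nd3. This count concerns the difference between Srci1 and the knockout alone, and not differences from DMSO or in Treg cultures. Apart from the set genes, the genes were picked by the size or adjusted p of that same difference. The count is therefore a description. Foxp3, which was not called, had log2 differences of -0.049 to 0.064 when each TH17 library was left out in turn, positive without Srci1 replicate 1 (0.030) or knockout replicate 2, and 0.044 with array weights. The counts of higher and lower genes stayed within 1.5 times of 3860 and 2319. Several gene group counts did not, and the cause was not tested. Genes lost with Srci1 and kept in the knockout (21) numbered 32 with a pseudocount of 0.1 TPM, 40 under median-of-ratios scaling and 38 after quantile normalization, with 23 lower in Treg cultures under both scalings (13). Genes gained with Srci1 alone (102) numbered 67 with a filter of 5 TPM, 57 under median-of-ratios scaling and 51 after quantile normalization, with 19 higher in Treg cultures under both scalings (36). Genes raised with Srci1 and lost in the knockout (45) numbered 69 with a pseudocount of 0.1 TPM and 23 under both scalings. Genes lost with Srci1 and raised in the knockout (10) numbered 31 with that pseudocount and 16 when TPM was rescaled to leave out ribosomal protein and mitochondrially encoded genes. Genes gained in the knockout (507) numbered 310 with a filter of 5 TPM, under which fewer genes were tested. Leaving out each TH17 library in turn gave 3250 to 4200 higher and 2031 to 2449 lower genes, and moved no count by over 1.5 times. Treg libraries were not left out in this way. Deviations from the group mean correlated at -0.11, -0.16 and 0.0072 between same-numbered Srci1 and knockout libraries, which differ in genotype. Pairing of Srci1 with DMSO libraries by number was not looked at in this way. With the replicate block there were 3803 higher and 2267 lower genes, and of the named genes only mt-Nd1 and mt-Nd2 lost their call. TPM carries no depth, so that counting error could not be set beside low values, and 3 libraries per group limit the precision.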

Other observations

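Proliferation genes were high in both altered groups. Of 26 tested replication and cell cycle genes, 13 were higher with Srci1 than in the knockout and 2 were lower, 10 and 6 after quantile normalization. Over all tested genes 32.3% were higher and 19.4% lower. The list's median log2 difference was 0.26. Its median difference from DMSO was 0.86 with Srci1 and 0.54 in the knockout, beside 0.23 and 0.14 over all tested genes. Rrm2, a ribonucleotide reductase gene, stood at 256, 240.2 and 238 TPM with Srci1, 146, 152 and 139.98 TPM in the knockout and 99.1, 95.6 and 87.1 TPM with DMSO, the 3 groups being apart. The mitotic kinase genes Aurka and Aurkb averaged 93.5 ± 4.25 and 121 ± 2.39 TPM with Srci1, 56.2 ± 2.75 and 80.5 ± 6.86 TPM in the knockout and 40.4 ± 1.44 and 66.9 ± 1.12 TPM with DMSO (SD, n = 3 each). The cyclin gene Ccne1 averaged 48.4 ± 0.97 TPM with Srci1, 30.4 ± 1.396 TPM in the knockout and 26.2 ± 1.72 TPM with DMSO.

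Of 11 tested p53 response genes, 7 were higher with Srci1 and 2 lower (median 0.47), beside 32.3% and 19.4% of all tested genes. Besides Cdkn1a, Mdm2, the ubiquitin ligase gene that limits p53, averaged 59.8 ± 6.14 TPM with Srci1, 30.4 ± 7.77 TPM in the knockout and 40.2 ± 7.09 TPM with DMSO, the death receptor gene Tnfrsf10b 11.9 ± 0.11 TPM with Srci1, 5.73 ± 0.46 TPM in the knockout and 8.97 ± 1.78 TPM with DMSO, and the stress gene Sesn1 33.1 ± 2.18 TPM with Srci1, 73.97 ± 9.39 TPM in the knockout and 12.2 ± 1.91 TPM with DMSO. Of 15 actin and motor genes, 9 were higher and 2 lower (median 0.36), beside the same shares of all tested genes. Besides Myo6, the actin nucleation gene Actr3b stood at 70.1, 72.5 and 68.2 TPM with Srci1, 13.9, 13.5 and 12.03 TPM in the knockout and 6.09, 5.98 and 4.27 TPM with DMSO. Drc1, a gene of ciliary dynein regulation, stood at 18.4, 16.4 and 15 TPM with Srci1, 51.7, 44.7 and 51.5 TPM in the knockout and 0.10, 0.30 and 0.29 TPM with DMSO, so that both altered groups were far above DMSO and the knockout was highest. The actin crosslinker gene Flna averaged 281 ± 5.11 TPM with Srci1, 163 ± 13.7 TPM in the knockout and 243 ± 11.3 TPM with DMSO. Of 13 mitochondrially encoded genes, 2 were higher and 2 lower, 0 and 4 under median-of-ratios scaling. Both counts were below the shares of all tested genes (32.3% and 19.4%).

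Within 5 Mb of Stat3 on chromosome 11, 87 of 147 tested genes (59.2%) were called, against 51.8% of all tested genes and 58.1% of those on chromosome 11. Differences of at least 2-fold were seen in 14.3% of the genes near Stat3, against 14.1% of all tested genes.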
